A study of Mus musculus with 6 samples.

Results

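The proteasome genes of mouse cumulus granulosa cells were described, in a comparison of libraries labelled Atg5-KD with libraries labelled control. The members are the rows of the authors' deposited table whose symbol is Psm followed by a letter from a to g and a digit, with a base mean above 3.3. Of 50 such symbols, 3 were left out by name because they encode the subunits of the immunoproteasome, and 1 was left out by its base mean, which leaves 46 of the 24982 rows of the authors' deposited table. The 46 comprise 15 genes of the core particle, 17 of the regulatory particle, 5 Psme activators, 7 assembly chaperones, the inhibitor Psmf1, and Psmc3ip, which matches the symbol pattern and encodes a meiotic recombination factor and no part of the proteasome.

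The cells came from Kun-Ming mice, an outbred stock, and surround the oocyte in the follicle. Of 6 libraries of poly(A) RNA, 3 were labelled control and 3 were labelled Atg5-KD. The second label stands for cells transfected with short hairpin RNAs against Atg5, a gene needed to lipidate LC3 in autophagy. The titles of the libraries read ctr and ko, and ko is taken here as the knockdown. What the control cells received, the hairpin sequences, the age of the mice and whether libraries of a group came from separate animals or cultures are not given in the sources used here, so the p-values cover only the spread of these 6 libraries, and that spread may be technical. The comparison asks which transcripts change with the hairpins against Atg5, and the proteasome is the other main route of protein breakdown beside autophagy.

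The proteasome is a barrel of stacked alpha and beta rings, the core particle, whose beta subunits Psmb5, Psmb6 and Psmb7 cut proteins inside a closed chamber. The regulatory particle caps the barrel, binds ubiquitin-tagged proteins, removes the tag and threads the protein in with a ring of ATPases. The Psme activators are other caps that open the core without ubiquitin. Psme1 and Psme2 form a ring in the cytoplasm that is known to be induced by interferon and to bear on the peptides shown to T cells, Psme3 forms a related nuclear ring, and Psme4 is a large single-chain nuclear cap. Transcription of core and regulatory subunits is known to be raised together by the factor Nfe2l1 when proteasome activity is short.

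The promoters of the activators are shown first because these genes carry the calls described below. Sequences are those of RefSeq on GRCm38.p6, the assembly of mm10, from 250 bases before the annotated start to 20 bases after it, 5′ to 3′ on the gene's strand. They lie at chr14:55578244-55578513 on the plus strand for Psme1, chr14:55591082-55591351 on the minus strand for Psme2, chr11:48946391-48946660 on the minus strand for Psme2b, chr11:30771525-30771794 on the plus strand for Psme4 and chr11:101315963-101316232 on the plus strand for Psme3, the activator that was not called. Capitals mark a match to an interferon-stimulated response element core, which is GAAA, 2 bases of any kind and GAAA again, or its reverse complement, in Psme1, and to an antioxidant response element core, TGACNNNGC or its reverse complement GCNNNGTCA, in Psme4.
Psme1: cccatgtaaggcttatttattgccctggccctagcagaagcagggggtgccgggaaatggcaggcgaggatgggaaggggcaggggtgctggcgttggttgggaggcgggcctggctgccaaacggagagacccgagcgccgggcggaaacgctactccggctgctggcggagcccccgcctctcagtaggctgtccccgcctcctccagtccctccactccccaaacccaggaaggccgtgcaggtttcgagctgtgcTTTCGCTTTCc
Psme2: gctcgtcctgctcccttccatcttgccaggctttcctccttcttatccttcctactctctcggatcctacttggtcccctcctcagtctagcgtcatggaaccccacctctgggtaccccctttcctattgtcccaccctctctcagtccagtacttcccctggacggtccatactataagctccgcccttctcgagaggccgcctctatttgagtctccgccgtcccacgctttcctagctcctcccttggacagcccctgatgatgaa
Psme2b: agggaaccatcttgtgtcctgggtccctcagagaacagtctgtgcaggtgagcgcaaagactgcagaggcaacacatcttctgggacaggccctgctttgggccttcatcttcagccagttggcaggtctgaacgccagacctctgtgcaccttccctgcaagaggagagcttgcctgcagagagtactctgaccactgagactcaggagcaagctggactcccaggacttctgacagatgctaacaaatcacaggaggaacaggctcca
Psme4: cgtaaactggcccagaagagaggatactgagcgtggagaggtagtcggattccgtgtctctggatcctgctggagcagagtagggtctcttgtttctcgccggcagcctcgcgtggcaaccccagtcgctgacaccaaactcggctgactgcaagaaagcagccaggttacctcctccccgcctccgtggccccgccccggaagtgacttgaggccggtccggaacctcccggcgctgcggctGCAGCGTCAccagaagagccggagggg
Psme3: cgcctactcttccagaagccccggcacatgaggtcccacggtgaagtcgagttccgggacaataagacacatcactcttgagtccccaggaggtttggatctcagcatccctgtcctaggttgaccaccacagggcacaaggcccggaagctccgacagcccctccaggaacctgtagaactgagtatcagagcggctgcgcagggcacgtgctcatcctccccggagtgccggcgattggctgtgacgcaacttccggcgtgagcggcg

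Psme1 holds the interferon element core as TTTCGCTTTC, its first base being base 10 counted from the annotated start. Over the full window of 300 bases, which reaches 50 bases past the start, this core was found in 1 of 5 activator genes and in 4 of 33 other members with an entry, against 3.99% of 27025 genes. The 4 were Psmb3, Psmd4, Psmd9 and Psmg4. The antioxidant element core, the letters that Nfe2l1 and Nfe2l2 bind with small Maf partners, was found in 6 of 38 members, Psmb5, Psmb6, Psmc6, Psmd12, Psmd9 and Psme4, a share of 15.8% beside 13.99% of all genes. The gamma-activated sequence TTCNNNGAA, another interferon element and its own reverse complement, was found in 0 of 5 activators and in 2 of 38 members, Psmd2 and Psmg1, a share of 5.26% beside 9.55% of all genes. Motifs were searched on both strands, and a match says only that these letters are present. No entry was found for Psma8, Psmb1, Psmb2, Psmb7, Psmc3, Psmd3, Psmd7 and Psmg2.

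Values come from the authors' deposited table, which gives for each gene a base mean, the mean over all libraries of counts divided by size factors, and a log2 fold change with a standard error and a Wald test. It holds no values per library, so group means below are estimates computed from the base mean and the fold change. The direction, Atg5-KD over control, rests on the name of the table, which puts KO before CTr. KO is read here as the knockdown, and the target gives no check of the direction. Atg5 was at an estimated 414 in control and 397 in Atg5-KD, and the authors' deposited table gave it a log2 fold change of -0.06 ± 0.14 (SE) with an adjusted p of 0.822. The estimated share of the ribosomal RNA locus Rn45s was 1.17% in control and 17.9% in Atg5-KD. Of the granulosa markers, Inha and Foxl2 had base means of 30063 and 1816 in the authors' deposited table, while Amh and Cyp19a1 had 6.07 and 2.34. Of 7 granulosa markers tested, the authors' deposited table called Nr5a2 higher at 0.62 ± 0.12 (SE) and Foxl2 and Fst lower at -0.49 ± 0.10 (SE) and -0.26 ± 0.09 (SE). Markers of other cells were also present and none was at 0. The summed estimated level of 10 leukocyte markers was 2187 in control and 545 in Atg5-KD, that of 6 smooth muscle markers was 12351 and 5528, and that of 6 stromal markers was 6873 and 3672. The markers called lower by the authors' deposited table numbered 8, 6 and 5, beside 10.5% of all tested genes. Most of the leukocyte sum was Lyz2, estimated at 1476 in control and 335 in Atg5-KD. Of 6 oocyte markers 3 were tested and 0 called, at a summed level of 52.6 and 61.4. Members of the proteasome are expressed in all of these cell types, and fewer cells of a type and less RNA per cell cannot be told apart in such bulk libraries. The part of these cell types in the results below was not tested.

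Only activators were called higher among the members, and no member was called lower. At an adjusted p under 0.05, the authors' deposited table called 4 of 46 members higher in Atg5-KD and 0 lower, and the 4 were Psme1, Psme2, Psme2b and Psme4. Of all 14835 tested genes, 20.9% were called, 10.4% higher and 10.5% lower. Among tested genes with a base mean of at least 50, to which 44 of the members belong, 24.8% were called, 12.1% higher and 12.7% lower. Of the 41 members other than activators the authors' deposited table called 0, and 2, Psmb6 and Psmd3, were lower at an unadjusted p under 0.05 while 0 were higher. At that unadjusted p, 2317 of the 14835 tested genes were higher and 2357 lower. The 41 members had a median log2 fold change of -0.04, beside 0.00 for all tested genes, and ranged from -0.26 to 0.21. For 38 of these 41 the 95% interval lay within a log2 fold change of 0.5 in either direction, a 1.41-fold change. A larger change lies outside the interval of each of those 38. Among tested genes with a base mean of at least 50, 6098 of 11296 had such an interval. The median base mean of those 11296 genes was 528, beside 1438 for the 41 members. These counts depend on the scaling. When the groups were scaled to all reads, Rn45s included, every log2 fold change moved by -0.30, and 1 member was higher and 30 lower, or 31 of 46 in all, beside 42.3% of all tested genes, 3.6% higher and 38.7% lower. With Rn45s left out of the scaling the shift was -0.03, and 3 members were called higher and 2, Psmb6 and Psmd3, lower. Of all tested genes 21.5% were called in that setting.

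**Figure D1:**
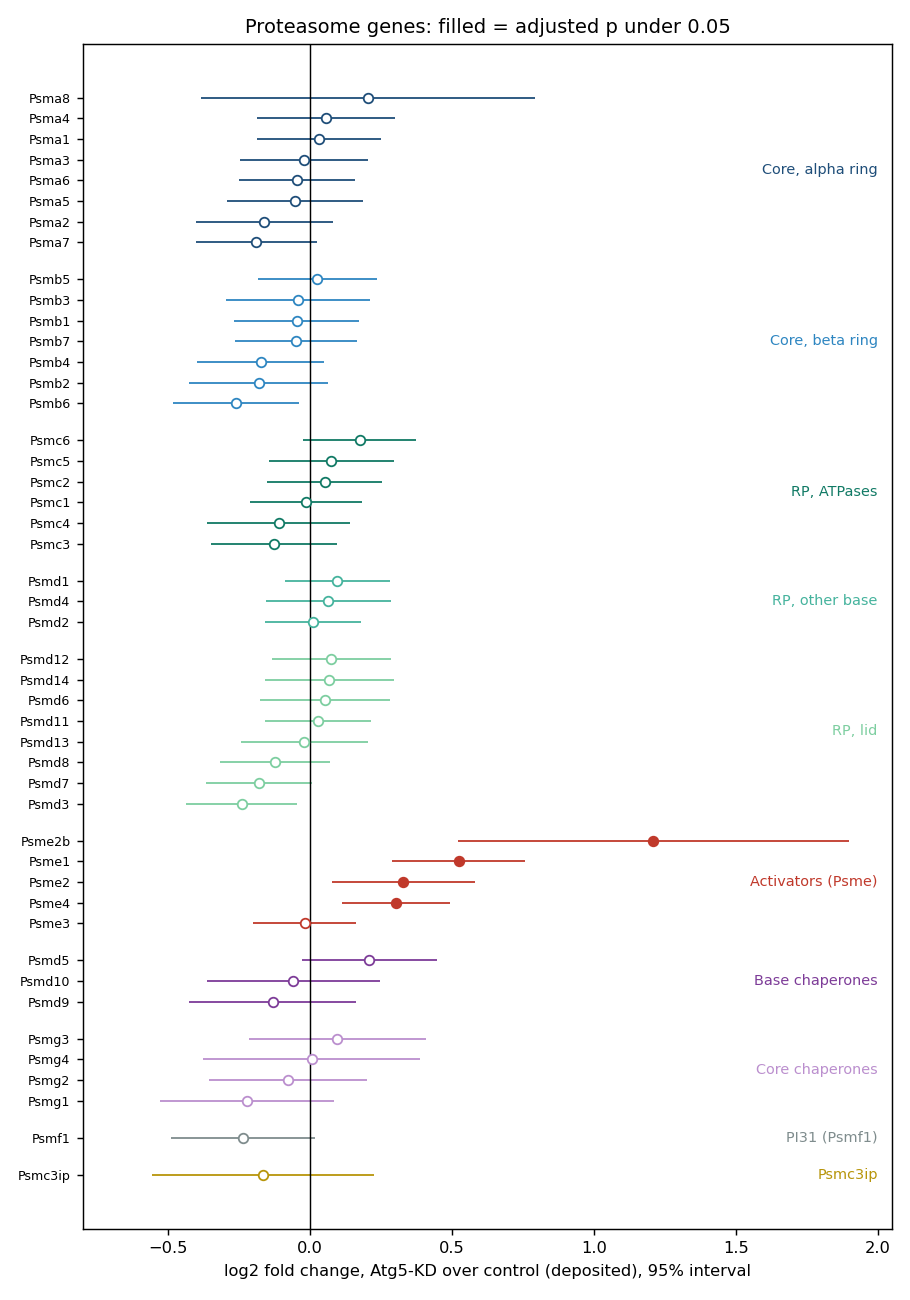
Log2 fold change of each of the 46 members in Atg5-KD over control (x axis) with its 95% interval (horizontal lines), in rows grouped by role, where RP is the regulatory particle and filled points passed an adjusted p of 0.05. The 4 filled points are activators, and Psme3 and the 41 other members are open.

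Psme1 and Psme2, which lie near each other on chromosome 14, were both called higher. Psme1, the alpha subunit of the cytoplasmic activator (gene 19186, chromosome 14, 55578494 to 55581527), had an estimated mean of 779 normalized counts in control and 1120.2 in Atg5-KD. In the authors' deposited table its log2 fold change was 0.52 ± 0.12 (SE), a 1.44-fold rise (adjusted p = 0.000191). Psme2, the beta subunit of the same ring (gene 19188, chromosome 14, 55587440 to 55591101), was estimated at 891 in control and 1119 in Atg5-KD. The authors' deposited table gives it 0.33 ± 0.13 (SE), a 1.26-fold rise with an adjusted p of 0.0491, just under the threshold. The 95% interval ran from 0.29 to 0.76 for Psme1 and from 0.08 to 0.58 for Psme2, and these overlap. In Atg5-KD the estimated means of the 2 genes were nearly equal in normalized counts. Per kb of transcript, Psme1 was at 1007 and Psme2 at 1163 in Atg5-KD. The Psme2 call was lost when p-values were adjusted over every row with a p-value (adjusted p = 0.0635) and when the groups were scaled to all reads without Rn45s (adjusted p = 0.0816). Under scaling to all reads with Rn45s, Psme1 was at 0.22 (adjusted p = 0.12) and Psme2 at 0.03 (adjusted p = 0.878), and neither was called.

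Psme2b, a copy of Psme2 on chromosome 11 (gene 621823, 48945345 to 48946410), showed the largest log2 fold change of the members. Its estimated mean was 22.5 normalized counts in control and 51.9 in Atg5-KD, and the authors' deposited table gave it 1.21 ± 0.35 (SE) on the log2 scale, a 2.31-fold rise (adjusted p = 0.00482). This call held when scaled to all reads with Rn45s, at 0.91 (adjusted p = 0.0253). Psme2b is a low-count member, at 2.52% of the Psme2 level in control and 4.64% in Atg5-KD. The transcripts of both genes, 962 and 837 bases long in GENCODE, agree at 99.4% of 794 aligned bases with 5 mismatches. Of 738 windows of 100 bases in the Psme2b transcript, 384 also stand in the Psme2 transcript. The sources used here do not say how reads that fit both were counted, so the split between them is uncertain. Summed over the pair, the estimated mean was 914 in control and 1171 in Atg5-KD, a 1.28-fold difference. Psme2b also overlaps 261 bases of 9930111J21Rik1 on the same strand, a gene with a base mean of 2.45 in the authors' deposited table. It lies 73925 bases from Irgm1, an interferon-induced GTPase that rose by 2.34 ± 0.12 (SE) in the authors' deposited table. Trim7, 94153 bases from Psme2b, was at 0.45 ± 0.27 (SE) and was not called (adjusted p = 0.24).

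Psme4, the large nuclear cap linked to breakdown of acetylated histones (gene 103554, chromosome 11, 30771775 to 30881150), was estimated at 2370.1 normalized counts in control and 2923 in Atg5-KD. The authors' deposited table put its log2 fold change at 0.30 ± 0.10 (SE), a 1.23-fold rise (adjusted p = 0.0119). With the trend of fold change with GC content and transcript length removed, Psme4 was at 0.08 and no longer called (adjusted p = 0.692), while Psme1 was at 0.66, Psme2 at 0.42 and Psme2b at 1.22 and kept their calls. The value of Psme4 scaled to all reads with Rn45s was 0.00 (adjusted p = 0.983). The span of Psme4 shares 18357 bases with Erlec1 on the opposite strand, introns included, and Erlec1 was at -0.01 ± 0.11 (SE) in the authors' deposited table. Gpr75, an orphan receptor gene 3483 bases from Psme4 on the same strand with a base mean of 38.4, was called higher at 0.95 ± 0.33 (SE) by the authors' deposited table (adjusted p = 0.0217). Asb3 and Chac2, 73242 and 95557 bases from Psme4, were at 0.17 ± 0.17 (SE) and 0.20 ± 0.21 (SE) and were not called. Psme3, the nuclear relative of Psme1 and Psme2 (chromosome 11, 101316213 to 101323537), was at an estimated 2345 in control and 2313 in Atg5-KD. In the authors' deposited table its log2 fold change was -0.02 ± 0.09 (SE) with a 95% interval from -0.20 to 0.16 (adjusted p = 0.919). The interval of Psme3 does not overlap those of Psme1 and Psme2b. It does overlap those of Psme2, from 0.08 to 0.58, and of Psme4, from 0.11 to 0.49. On the scale of all reads with Rn45s, Psme3 was called lower at -0.32 (adjusted p = 0.00234).

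**Figure D2:**
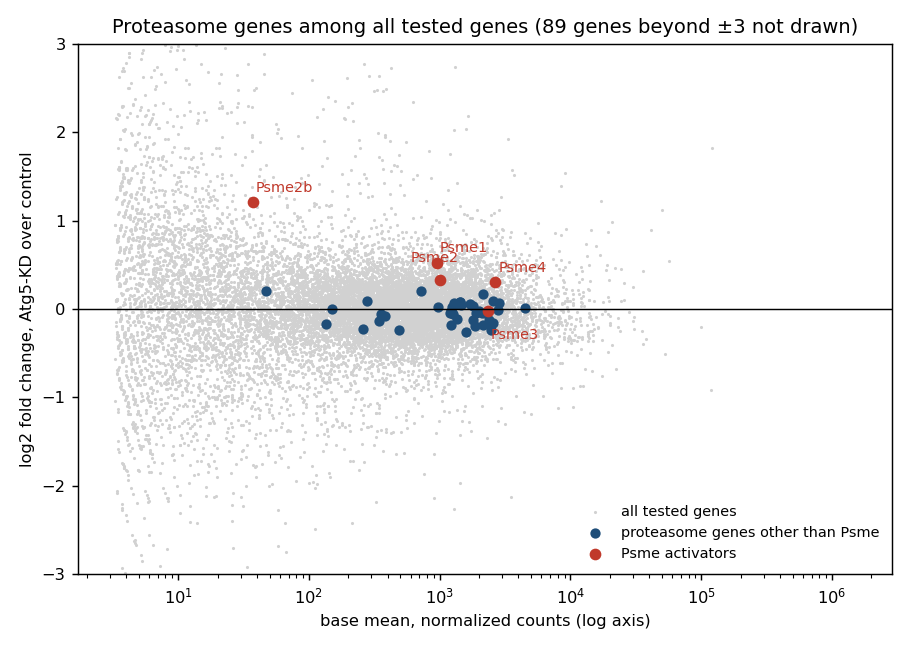
Log2 fold change in Atg5-KD over control (y axis) against base mean in normalized counts (x axis, log scale) for all tested genes in grey, the 41 members other than activators in blue and the 5 activators in red. The 89 tested genes beyond 3 on the log2 scale are not drawn, and the blue points lie between -0.26 and 0.21.

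Psme1 and Psme2 stand in a cluster that also holds a central factor of the interferon response. RefSeq places 19 other genes within 100 kb of Psme1, of which 16 were tested. Of these 16 the authors' deposited table called 3 higher and 1 lower, a share near the 20.9% called among all tested genes and the 24.8% called among those with a base mean of at least 50. The genes are described for their position. Irf9, a DNA-binding factor of the interferon response, is centred 27.0 kb from Psme1 and rose the most of the 16, from an estimated 225 to 752, with a log2 fold change of 1.74 ± 0.13 (SE) in the authors' deposited table (adjusted p = 3.34e-40). Psme2 itself is centred 9.26 kb away and is the second of the 3. The other was Rec8, a meiotic cohesin, at 0.87 ± 0.32 (SE) in the authors' deposited table (adjusted p = 0.0336). Rnf31, a ubiquitin ligase subunit that makes linear chains, lies between Psme2 and Irf9 and stood at 0.32 ± 0.13 (SE), which by the authors' deposited table did not pass (adjusted p = 0.0639). Emc9, between Psme1 and Psme2, was at -0.05 ± 0.25 (SE) in the authors' deposited table and shares 9 bases with Psme1 on the other strand. The lower gene was Pck2, an enzyme of gluconeogenesis, at -0.42 ± 0.09 (SE) in the authors' deposited table. The members as a whole are spread over 16 chromosomes, with 10 on chromosome 11.

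**Figure D3:**
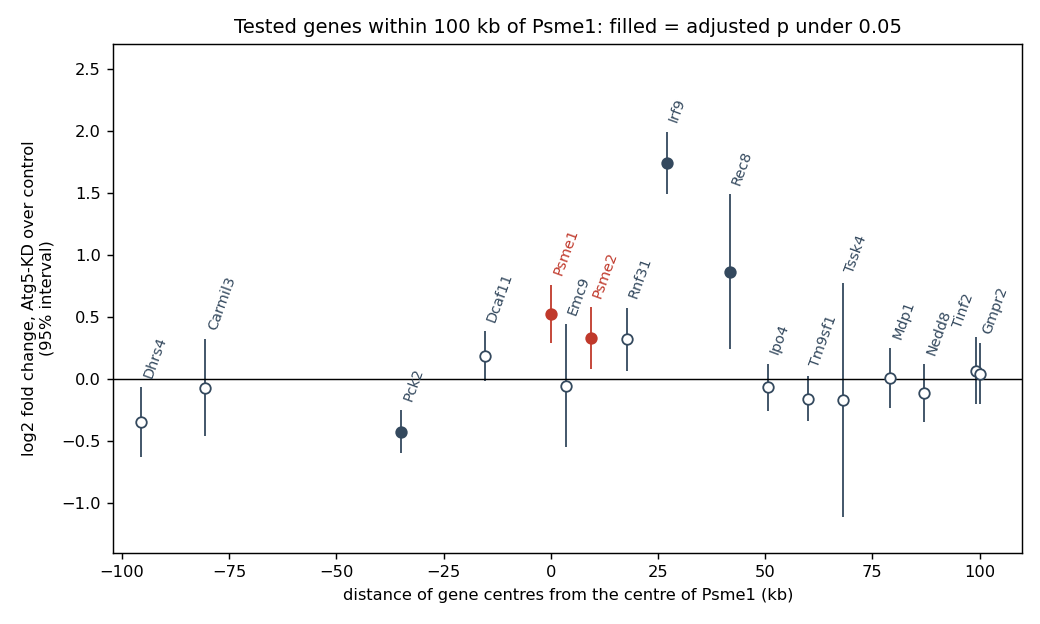
Log2 fold change in Atg5-KD over control with its 95% interval (y axis) for each tested gene within 100 kb of Psme1, placed by the distance between gene centres in kb (x axis), with Psme genes in red and genes past an adjusted p of 0.05 filled. Irf9 stands highest at 1.74, and Rnf31 and Emc9 beside Psme2 are open.

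The core particle showed no called change. The authors' deposited table called 0 of 15 core genes, with 1 lower and 0 higher at an unadjusted p under 0.05. At that p, 2357 of 14835 tested genes were lower and 2317 higher. The median log2 fold change of the core genes was -0.05, beside 0.00 over all tested genes. In the alpha ring, whose tails gate the entry to the chamber, the values ran from -0.19 for Psma7 to 0.20 for Psma8. Psma7 had an estimated mean of 1988 in control and 1743 in Atg5-KD, with -0.19 ± 0.11 (SE) in the authors' deposited table (adjusted p = 0.225). Psma2, the alpha gene of highest base mean, was at 2702 in control and 2416 in Atg5-KD. Psma2 was at -0.16 ± 0.12 (SE) in the authors' deposited table, and it came to -0.37 and was called lower (adjusted p = 0.0257) once the trend with GC content and length was removed. Psma1, Psma3, Psma4, Psma5 and Psma6 lay between -0.05 and 0.05 in the authors' deposited table. Psma8 replaces Psma7 in male germ cells. It was the member of lowest level per kb and the one nearest above the lower limit of base mean apart from Psme2b, at an estimated 43.5 in control and 50.1 in Atg5-KD, with 0.20 ± 0.30 (SE) in the authors' deposited table (adjusted p = 0.707). Just outside the limit, Psmb11, the beta subunit of thymic epithelium, had a base mean of 0.425 in the authors' deposited table.

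In the beta ring 6 of 7 values were below 0 in the authors' deposited table and 0 were called. Psmb6, which carries the caspase-like site, was lowest, with an estimated mean of 1744 in control and 1455 in Atg5-KD. The authors' deposited table gives -0.26 ± 0.11 (SE) for it (unadjusted p = 0.0203, adjusted p = 0.0828), a value that did not pass the test. Psmb5, with the chymotrypsin-like site that proteasome inhibitors block, was at an estimated 961 in control and 978 in Atg5-KD and at 0.03 ± 0.11 (SE) in the authors' deposited table. Psmb7, with the trypsin-like site, was at an estimated 2143 in control and 2070.0 in Atg5-KD, and at -0.05 ± 0.11 (SE) in the authors' deposited table. Psmb4, a subunit without a catalytic site and the beta gene of highest base mean, was at -0.17 ± 0.11 (SE), and the next lowest, Psmb2, at -0.18 ± 0.12 (SE), in the authors' deposited table. The intervals of the 3 catalytic subunits overlap. With scaling to all reads with Rn45s, 13 of the 15 core genes were called lower, beside 38.7% of all tested genes. Scaled to all reads without Rn45s, a shift of -0.03, Psmb6 was called lower at -0.29 (adjusted p = 0.0445).

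The immunoproteasome subunits that replace these 3 are not members and are given only for comparison. Psmb8, which replaces Psmb5, was at 2.13 ± 0.20 (SE), Psmb9, which replaces Psmb6, at 1.02 ± 0.37 (SE), and Psmb10, which replaces Psmb7, at 0.32 ± 0.19 (SE) in the authors' deposited table, the first 2 being called higher. Per kb of transcript, Psmb8 made up 4.41% of the Psmb5 and Psmb8 sum in control and 16.5% in Atg5-KD. Psmb9 made up 0.828% and 1.99% of its sum with Psmb6, and Psmb10 made up 5.44% and 6.94% of its sum with Psmb7.

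The regulatory particle also showed no called change. Of 17 genes the authors' deposited table called 0, with 1 lower and 0 higher at an unadjusted p under 0.05, beside 2357 lower and 2317 higher of 14835 tested genes. The median log2 fold change of the 17 was 0.03. All 17 intervals lay within 0.5 in either direction, beside 6098 of 11296 tested genes with a base mean of at least 50. Among the 6 ATPases, which unfold and thread the substrate, the values ran from -0.13 for Psmc3 to 0.17 for Psmc6 in the authors' deposited table. Psmc6 was estimated at 2005 in control and 2263 in Atg5-KD, and its adjusted p was 0.232. Psmc1, the ATPase of highest base mean, was at -0.02 ± 0.10 (SE) in the authors' deposited table. Psmd2, which docks ubiquitin shuttles and had the highest base mean of all members, was at an estimated 4493 in control and 4523 in Atg5-KD, and the authors' deposited table gave it 0.01 ± 0.09 (SE). Its interval ran from -0.16 to 0.18. Psmd4, a ubiquitin receptor, and Psmd1, the scaffold of the base, were at 0.06 ± 0.11 (SE) and at 0.10 ± 0.09 (SE), both from the authors' deposited table.

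The lid, which removes the ubiquitin chain, had values from -0.24 to 0.07. Psmd3, a scaffold of the lid and its gene of highest base mean, was at an estimated 2684 in control and 2270 in Atg5-KD. With -0.24 ± 0.10 (SE) in the authors' deposited table it did not pass the test (unadjusted p = 0.0154, adjusted p = 0.0675), and it was the member other than activators with the smallest adjusted p. Psmd7, the partner of the deubiquitinase Psmd14, was at -0.18 ± 0.10 (SE) and Psmd14 at 0.07 ± 0.12 (SE), per the authors' deposited table. Psmd12, another scaffold of the lid, had the highest value of the lid, 0.07 ± 0.11 (SE) in the authors' deposited table. Once scaled to all reads with Rn45s, 10 of the 17 regulatory particle genes were called lower, beside 38.7% of all tested genes, and without Rn45s Psmd3 was, at -0.27 (adjusted p = 0.0323).

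Assembly genes had no call. Of the 7, the authors' deposited table called 0, and 0 passed an unadjusted p under 0.05, with a median log2 fold change of -0.06. At that p, 2317 of 14835 tested genes were higher and 2357 lower. Psmd5, Psmd9 and Psmd10 hold ATPases until the base is complete. Psmd5, with the highest base mean and the highest value of them, was at an estimated 666 in control and 769.7 in Atg5-KD, with 0.21 ± 0.12 (SE) in the authors' deposited table (adjusted p = 0.229). Psmd9 was lowest of these 3 at -0.13 ± 0.15 (SE), and Psmd10 was at -0.06 ± 0.16 (SE), in the authors' deposited table. Psmg1 to Psmg4 build the alpha ring in pairs. Psmg1 was at an estimated 279.5 in control and 239.6 in Atg5-KD and had the lowest value, -0.22 ± 0.16 (SE) in the authors' deposited table (adjusted p = 0.345), and Psmg3 had the highest, 0.10 ± 0.16 (SE). Psmg2, of highest base mean among the 4, was at -0.08 ± 0.14 (SE) in the authors' deposited table. Psmf1, an inhibitor of the core in the test tube that also carries proteasomes along axons, was estimated at 531 in control and 449.9 in Atg5-KD. Psmf1 was at -0.24 ± 0.13 (SE) in the authors' deposited table (adjusted p = 0.193). Psmc3ip was at -0.17 ± 0.20 (SE) in the authors' deposited table. After scaling to all reads with Rn45s, 4 of the 7 assembly genes were called lower, beside 38.7% of all tested genes, and so were Psmf1 at -0.54 and Psmc3ip at -0.47.

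Levels were compared between genes per kb of the principal GENCODE transcript. The median base mean per kb was 1476 over the 14 core genes without Psma8, 956 over the regulatory particle, 854 over the activators and 249 over the assembly genes, beside 111.8 over all tested genes. Within the core the level per kb differed 2.93-fold between Psma7, the highest, and Psma3, the lowest, although the complex holds these subunits in equal number. Psma8 stood at 27.7 per kb and Psma7 at 2041, a 73.8-fold difference. Within the lid the highest, Psmd8 at 1550.2 per kb, was 3.55-fold above the lowest, Psmd11 at 437. The transcript used for the length bears on these levels. Set against the core median per kb, Psme1 was at 0.468 in control and 0.673 in Atg5-KD, and Psme2 at 0.618 and 0.777. The same ratio for Psme3 was 0.587 in control and 0.580 in Atg5-KD, and for Psme4 it was 0.244 and 0.301. The core median itself was 1499 per kb in control and 1498 in Atg5-KD. These ratios are estimates without an error of their own.

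**Figure D4:**
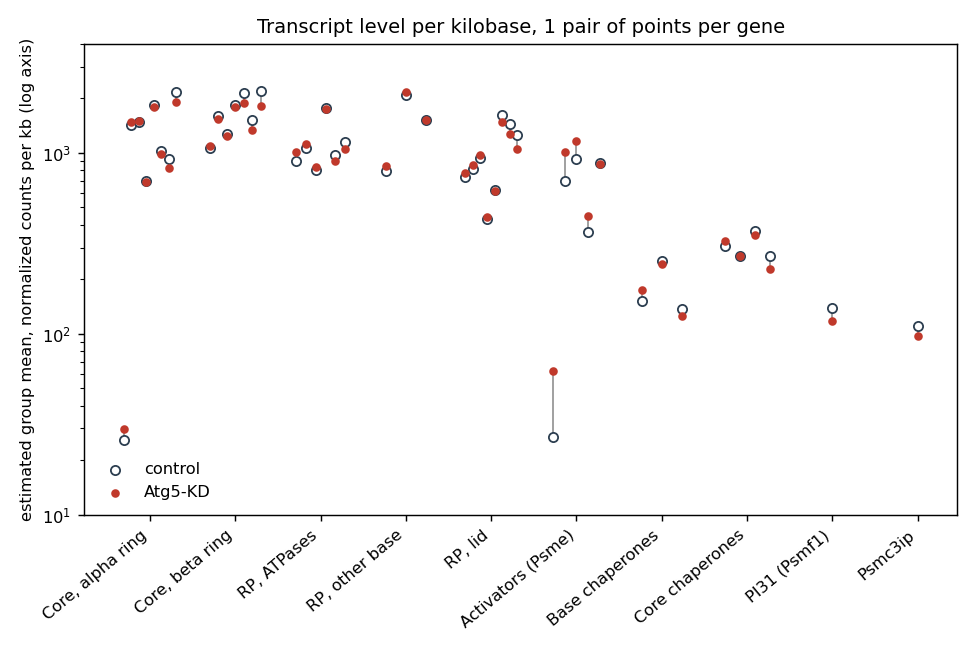
Estimated group mean in normalized counts per kb of transcript (y axis, log scale) for every member in control (open circles) and Atg5-KD (red points), grouped by role (x axis), where RP is the regulatory particle and a line joins the points of a gene. The points of a gene nearly coincide for most members, while those of Psme1, Psme2, Psme2b and Psme4 lie higher in Atg5-KD.

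Some genes around the proteasome that do not carry a Psm symbol were called, in both directions. Of 39 such genes measured, from lists of other subunits, bound factors, ubiquitin shuttles, transcriptional regulators, ubiquitin genes and peptidases, the authors' deposited table called 6 higher and 6 lower, 12 of 39 beside 20.9% of all tested genes and 24.8% of those with a base mean of at least 50. Their median log2 fold change was -0.04. Adrm1, the ubiquitin receptor that sits on Psmd1, was the lone called gene of the other subunits. Its estimated mean was 2219 in control and 1511 in Atg5-KD, and the authors' deposited table gave it -0.55 ± 0.10 (SE), a 1.47-fold fall. The lid peptide Sem1 and the core maturation factor Pomp did not pass the test, at -0.11 ± 0.13 (SE) and at -0.12 ± 0.12 (SE), per the authors' deposited table. Of 8 bound factors 2 were higher and 1 lower. Usp14, which trims ubiquitin chains on the regulatory particle, rose by 0.26 ± 0.10 (SE), and Ecpas, an adaptor that holds core and cap together, at 0.41 ± 0.10 (SE) in the authors' deposited table. Txnl1, a thioredoxin-like protein bound to the regulatory particle, was lower at -0.41 ± 0.10 (SE) in the authors' deposited table.

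Of 9 shuttle genes 1 was lower, Ubqln2, which carries tagged proteins to the proteasome, at -0.37 ± 0.12 (SE) in the authors' deposited table. Vcp, the unfolding ATPase upstream of the proteasome and the most abundant of this list, was at -0.17 ± 0.08 (SE) in the authors' deposited table and did not pass the test (adjusted p = 0.13). Among 7 regulators, Nfe2l1 itself was at an estimated 6312 in control and 5763 in Atg5-KD and did not pass the test, at -0.13 ± 0.09 (SE) in the authors' deposited table. Its relative Nfe2l2, which controls antioxidant genes, was higher at 0.25 ± 0.10 (SE), and Mafk, a small partner of both, was lower at -0.33 ± 0.11 (SE) in the authors' deposited table. The Nfe2l2 call was close to the threshold (adjusted p = 0.0462) and was lost when adjusted over every row with a p-value (adjusted p = 0.0597). Of 6 ubiquitin genes and activating enzymes, Ubb, a polyubiquitin gene, was lower at -0.42 ± 0.10 (SE) and Uba6, the second activating enzyme, higher at 0.53 ± 0.15 (SE) in the authors' deposited table. Uba1, the main activating enzyme and the most abundant of them, was at -0.02 ± 0.08 (SE) in the authors' deposited table. Among 6 peptidases, Erap1, which trims peptides for MHC class I in the endoplasmic reticulum, was higher at 0.41 ± 0.12 (SE) and Nrd1, a metallopeptidase and the most abundant of this list, at 0.30 ± 0.09 (SE) in the authors' deposited table. Thop1, which destroys peptides in the cytosol, was lower at -0.30 ± 0.11 (SE) in the authors' deposited table. With the trend with GC content and length removed, 0 of the 39 were higher and 4 lower, and the 4 were Adrm1, Txnl1, Ubqln2 and Ubb. Of 14680 tested genes in that setting 13.5% were called, 896 higher and 1093 lower. With all reads and Rn45s as the scale, 0 of the 39 were higher and 24 lower, beside 3.6% and 38.7% of all tested genes.

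An interferon response list is given beside the activators. Of its 10 genes 9 were called higher in the authors' deposited table, beside 10.4% of all tested genes and 12.1% of those with a base mean of at least 50. The summed estimated level of the 10 was 4657 in control and 11822 in Atg5-KD. The largest log2 fold changes of the list were 6.89 ± 0.37 (SE) for Ifit1, 6.53 ± 0.63 (SE) for Isg15 and 5.39 ± 0.25 (SE) for Irf7. Nlrc5, which drives MHC class I genes, was at 1.99 ± 0.31 (SE) and Irf1, which did not pass the test, at 0.07 ± 0.16 (SE) in the authors' deposited table. The peptide transporter genes Tap1 and Tap2 were at 1.02 ± 0.13 (SE) and at 0.41 ± 0.11 (SE), per the authors' deposited table, beside 0.52 for Psme1 and 0.33 for Psme2. The part of the interferon response in the rise of Psme1, Psme2 and Psme2b was not tested.

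**Figure D5:**
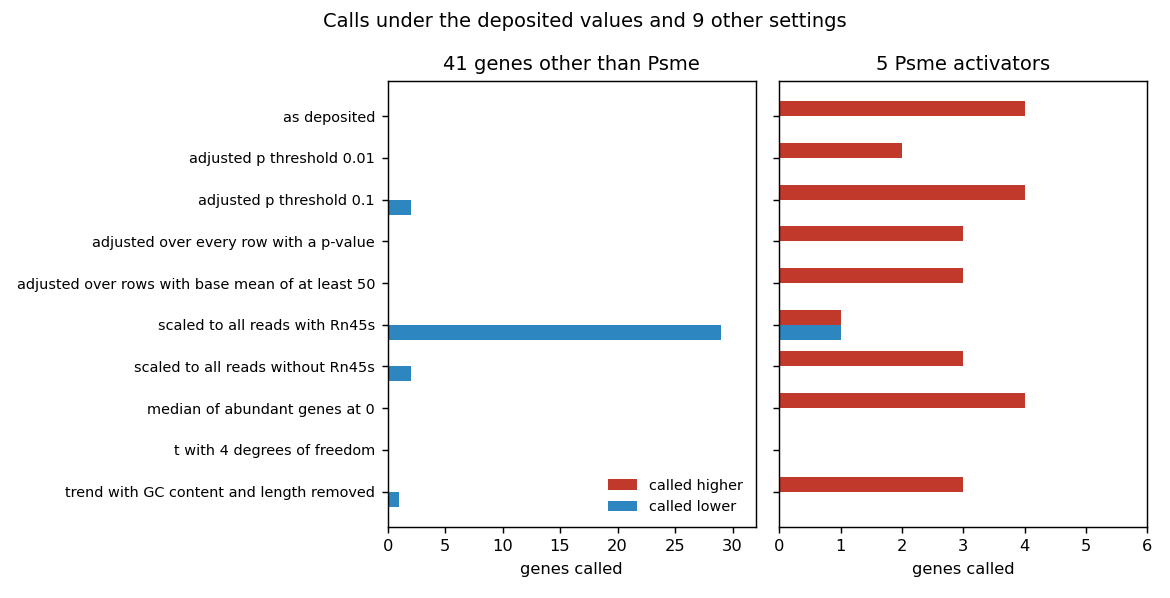
Number of genes called (x axis) higher in red and lower in blue under the deposited values and 9 other settings (rows), for the 41 members other than activators on the left and the 5 activators on the right. On the left 29 genes are called lower when scaled to all reads with Rn45s and at most 2 in the other settings, and on the right activators are called higher in every setting but t with 4 degrees of freedom.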

How the data were processed

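Paired reads of 150 bases were sequenced per the labels' protocols. The submitters' processing notes name mm10, DESeq2 1.30.1, StringTie 2.1.4, featureCounts 1.6.2 and STAR, with no role or order. The file used has the column names that DESeq2 writes, per the file headers, and covers all 6 libraries. The base mean is a signal value deposited by the authors, a mean of counts after division by size factors. Fold changes and their errors were deposited by the authors on the log2 scale. The deposited Wald statistic is a score made by the authors. Each p-value and adjusted p-value was deposited by the authors, the adjusted one for 14835 of 24982 rows. Recomputing the statistic, p-value and Benjamini-Hochberg adjustment left 0 rows that differed by more than 1e-06. With 0 columns per library, depth per library was not analysed here and the deposited Wald test was the test used.

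Group means were computed as the values whose mean is the base mean and whose log2 ratio is the deposited one. Intervals are 95% Wald intervals. Genes were called at an adjusted p under 0.05. Lengths and GC content come from 1 GENCODE M21 transcript per gene (GRCm38), matched for 99.0% of tested genes and all 46 members, and the trend was a Huber fit of polynomials of degree 3 with statsmodels 0.14.6. Coordinates and promoters are from RefSeq GRCm38.p6, and promoters matched 38 of the 46 members. Computations used Python 3.11.15 and were tested on simulated data. Alternatives were other thresholds, adjustments over other rows, other scalings, a t distribution and removal of the trend with GC content and length. Named genes were every called member, the most abundant and most extreme members of each role, and the called and most abundant genes of each pathway list; beyond that rule, some members and the interferon, marker and neighbouring genes were named after their values were seen. Members and lists were chosen with earlier results of these data known. An item of the interferon list is not reported here.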

Additional observations from a re-analysis of the deposited data

How the results depend on the processing

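Scaling by all reads with Rn45s changed most. The 31 members called, instead of 4, were 13 core, 10 regulatory particle, 4 assembly and 2 activator genes besides Psmf1 and Psmc3ip. This scaling called 24 pathway genes instead of 12, beside 42.3% of all tested genes instead of 20.9%. It also turned the sign of several log2 fold changes, given here at their new values, Psma1 -0.27, Psma4 -0.24, Psma8 -0.097, Psmb5 -0.27, Psmc2 -0.25, Psmc5 -0.22, Psmc6 -0.12, Psmd1 -0.20, Psmd11 -0.27, Psmd12 -0.22, Psmd14 -0.23, Psmd2 -0.29, Psmd4 -0.24, Psmd5 -0.091, Psmd6 -0.25, Psmg3 -0.20, Psmg4 -0.29, Usp14 -0.036 and Nfe2l2 -0.046. Scaling without Rn45s called 1 core gene, Psmb6, and 1 regulatory particle gene, Psmd3, left 10 pathway genes called, 4 of them higher, with the calls of Usp14 and Nfe2l2 lost, and turned, again at the new values, Psma1 -0.00053, Psmb5 -0.0063, Psmd11 -0.0044, Psmd2 -0.022 and Psmg4 -0.027. Removing the trend with GC content and length called 1 core gene, Psma2, and 4 pathway genes, ended the call of Psme4, and in the same way turned Psma1 -0.063, Psma4 -0.019, Psmb3 0.060, Psmc1 0.0066, Psmc3 0.018, Psmc6 -0.061, Psmd11 -0.0069, Psmd12 -0.013, Psmd13 0.085 and Psmd14 -0.040. The members turned by these 3 settings lay between -0.13 and 0.21 in the deposited table, and 0 of them were called there. Adjusting over every row with a p-value left 11 pathway genes, 5 of them higher, with the call of Nfe2l2 lost. A threshold of 0.01 left 2 members, both activators, and 7 pathway genes, and a threshold of 0.1 added 1 core gene and 1 regulatory particle gene. Of all tested genes, 13.9% were called at 0.01 and 26.1% at 0.1. The share was 21.5% with scaling without Rn45s and 13.5% with the trend removed. Adjusting over every row with a p-value called 15.1% of 19241 rows. A t distribution with 4 degrees of freedom called 0 members, 0 activators and 0 pathway genes, but also 0 of 14835 genes, so it says nothing of the members. Centring on the median of abundant genes and adjusting over genes with a base mean of at least 50 changed no call or direction among the single genes they covered. No paired analysis was possible because the deposited table holds no values per library, and leaving out a library could not be run for the same reason. Depth per library is unknown, and the widest intervals are those of the low members Psme2b and Psma8.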
